A study of Mus musculus with 6 samples.

Results

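The genes examined here encode translation initiation factors and aminoacyl-tRNA synthetases, and their expression was compared in the lungs of hSRY-ON and hSRY-OFF mice. The rule that picks them reads gene symbols and no measured value, although it was set with earlier results of these data known. All symbols beginning with Eif1 to Eif6 were taken, except Eif4enif1 and symbols ending in x or y, together with every cytosolic or mitochondrial tRNA synthetase symbol. Ears2, Fars2 and Pars2 were counted as mitochondrial synthetases. This gave 84 of the 18138 gene symbols on the array, measured by 129 of its 25697 probes. The 84 symbols comprised 50 Eif symbols and 34 synthetase symbols. Eif2c1 to Eif2c4 are older names of the Argonaute genes Ago1 to Ago4, which act in small RNA silencing, and they are described apart.

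Lung RNA was taken on postnatal day 6 from male FVB mice (FVB/N in the study's methods), 3 in each group, and each mouse was measured on 1 array of the Illumina MouseRef-8 type. Per the study's methods, the Signalox-hSRY transgene was inserted once at the H11 locus, and its ubiquitous CAG promoter drives the red fluorescent protein gene DsRed2 until a Cre recombinase removes it. The hSRY-ON mice descended from heterozygous Signalox-hSRY fathers and Ddx4-Cre mothers, whose eggs passed on the recombinase, so that FLAG-tagged human SRY and EGFP came under the CAG promoter at the single-cell stage in the whole animal. For the arrays, hSRY-ON animals lacking Ddx4-Cre were selected, and the sources used here do not give this for the hSRY-OFF mice. The hSRY-OFF label names mice with the transgene not recombined, although the study also describes littermates without the transgene as controls. The transgene rests on 1 inserted line. The Sry probe of the array is named for the mouse gene, and human SRY was not analysed here.

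Translation starts when eIF2 brings the initiator tRNA to the small ribosomal subunit with eIF1, eIF1A, eIF3 and eIF5. The cap-binding protein eIF4E, the scaffold eIF4G and the helicase eIF4A then bring the mRNA to it. Stress kinases phosphorylate eIF2, which blocks its exchange factor eIF2B, slows translation and favours the transcription factor ATF4. The 4E-binding proteins hold eIF4E back when the growth regulator mTORC1 is inactive. Aminoacyl-tRNA synthetases charge each tRNA with its amino acid, some of them joined in a cytosolic multisynthetase complex, and several of their genes are known targets of ATF4.

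Promoter sequences are shown for 5 synthetase genes to which the results below return. Dars and Qars encode the aspartyl and glutaminyl enzymes, both of the multisynthetase complex, and changed in opposite directions. Aars, Gars and Tars encode the alanyl, glycyl and threonyl enzymes, and were the members whose promoter window held the core of the amino acid response element, TGATGNAA, which ATF4 is known to bind. Each window is the 250 bases before the RefSeq gene start, on the gene's strand in build GRCm38.p6. Capitals mark the letters TGATGNAA and CACGTG (an E-box) on either strand, and CCGGAAGT (an ETS motif) was searched too. No match overlapped another in these windows.
Dars, chr1:128417417-128417666, minus strand: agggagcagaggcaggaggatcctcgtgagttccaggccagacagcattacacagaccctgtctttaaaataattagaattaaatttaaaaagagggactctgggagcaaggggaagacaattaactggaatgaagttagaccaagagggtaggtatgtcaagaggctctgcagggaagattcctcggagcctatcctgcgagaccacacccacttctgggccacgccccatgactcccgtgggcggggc
Qars, chr9:108507755-108508004, plus strand: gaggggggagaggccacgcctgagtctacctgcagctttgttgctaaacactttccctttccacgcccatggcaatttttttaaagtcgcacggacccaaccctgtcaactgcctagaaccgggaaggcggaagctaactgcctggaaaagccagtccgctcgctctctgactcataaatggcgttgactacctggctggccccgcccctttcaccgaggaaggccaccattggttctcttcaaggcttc
Aars, chr8:111033592-111033841, plus strand: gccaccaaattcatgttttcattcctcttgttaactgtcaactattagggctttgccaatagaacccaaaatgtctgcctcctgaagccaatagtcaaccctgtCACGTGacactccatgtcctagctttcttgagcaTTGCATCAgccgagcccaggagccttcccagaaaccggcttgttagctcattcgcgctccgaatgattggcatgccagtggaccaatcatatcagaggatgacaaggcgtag
Gars, chr6:55037751-55038000, plus strand: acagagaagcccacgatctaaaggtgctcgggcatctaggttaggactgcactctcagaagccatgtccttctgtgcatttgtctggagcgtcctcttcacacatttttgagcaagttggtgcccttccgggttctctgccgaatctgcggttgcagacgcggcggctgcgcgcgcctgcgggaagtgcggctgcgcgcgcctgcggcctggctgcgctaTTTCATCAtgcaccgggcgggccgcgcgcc
Tars, chr15:11399659-11399908, minus strand: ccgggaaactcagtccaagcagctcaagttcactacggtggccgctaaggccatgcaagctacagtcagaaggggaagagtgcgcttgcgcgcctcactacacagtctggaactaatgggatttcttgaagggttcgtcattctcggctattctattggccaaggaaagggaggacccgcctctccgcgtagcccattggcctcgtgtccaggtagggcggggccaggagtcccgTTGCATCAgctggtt

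The windows of Dars and Qars held none of these letters. Promoter windows were found for 61 of the 81 current gene names behind the 84 symbols, 72 windows in all. The letters TGATGNAA stood in 3 of 72 member windows (4.17%) and in 1134 of all 32851 windows (3.45%). Of the 58 windows of members tested, 3 held these letters (5.17%), against 2.24% of the windows of genes tested here. Among the 13 windows of cytosolic synthetases they stood in 3. The E-box letters stood in 14 of the 72 member windows (19.4%), against 6.02% of all windows and 8.02% of the 8496 windows of genes tested here. CCGGAAGT stood in 7 member windows (9.72%), against 2.88% of all windows and 5.27% of those of genes tested. Windows were not matched for base composition, and some belong to 1 gene. None of the 4 windows of genes that differed between the groups (Dars, Eif2b2, Eif5 and Qars) held any of the 3 motifs.

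Few of these genes differed between the groups, and all but 1 of the probes that did changed by less than 2-fold. Probes were tested where at least 3 of the 6 arrays detected them above background, at a detection p under 0.05. This left 99 of the 129 member probes for 67 of the 84 symbols. The other 30 probes were detected on at most 1 array of either group. Of the 99 tested probes, 11 (11.1%) differed between the groups by limma's two-sided test, at a Benjamini-Hochberg adjusted p under 0.05 over all 13841 tested probes. Over all tested probes 26.9% differed. Among the members 5 probes were higher and 6 lower in hSRY-ON, or 5.05% and 6.06%, against 13.6% and 13.3% of all tested probes. The 11 probes belonged to 8 genes. In bulk tissue such as this, fewer cells of a type and less RNA per cell cannot be told apart.

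The size of the changes was also modest. The median absolute change was 0.21 on the log2 scale among the members and 0.32 among all tested probes. A change of at least 0.5 was fitted for 10 of the 99 member probes (10.1%) and for 32.3% of all tested probes, and 1 member probe reached 2-fold. The standard error of the change was smaller for the members, with a median of 0.133 against 0.161 for all tested probes. The members were also brighter, with a median hSRY-OFF level of 10.14 against 8.31 on the log2 scale. These comparisons with all tested probes were not matched for level. Group values did not overlap in 32 member probes (32.3%), 9 higher and 23 lower in hSRY-ON. Over all tested probes, 46.6% did not overlap, 22.4% higher and 24.1% lower. The median change of the members was -0.11, against -0.035 for all tested probes. It was 0.01 when arrays were scaled by their medians instead of quantile-normalized, against 0.02 for all tested probes. Under the other alternatives it lay between -0.132 and -0.044. Its direction thus turned only with median scaling after background correction. Median scaling without background correction gave -0.074, against -0.031 for all tested probes.

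**Figure D1:**
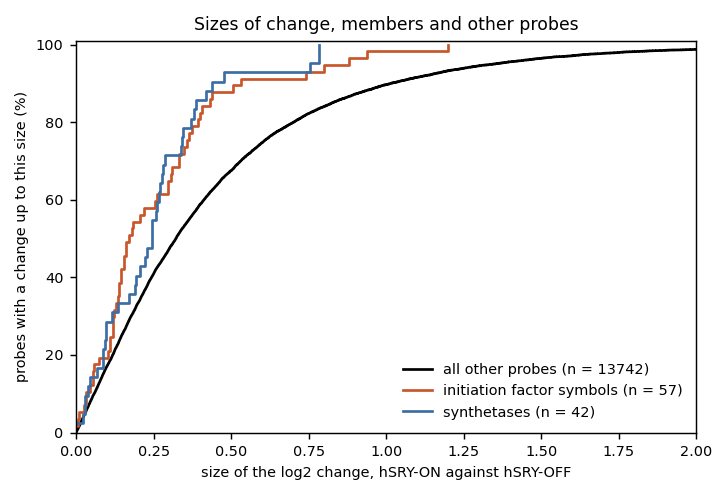
Cumulative share of probes (vertical axis, %) with a change up to a given size (horizontal axis, absolute log2 change between hSRY-ON and hSRY-OFF, cut at 2), for 57 probes of initiation factor symbols, 42 synthetase probes and the 13742 other tested probes. Both member curves lie above that of the other probes over most of the range, and the largest member change was 1.20.

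A missed threshold does not show that a level stayed the same, so the intervals are given as well. Of the 88 member probes that did not pass, 83 (94.3%) had a 95% confidence interval that lay within a 2-fold change in either direction, against 85.5% of all probes that did not pass. For 42 of them (47.7%) the interval lay within 0.5 on the log2 scale, against 30.9%.

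**Figure D2:**
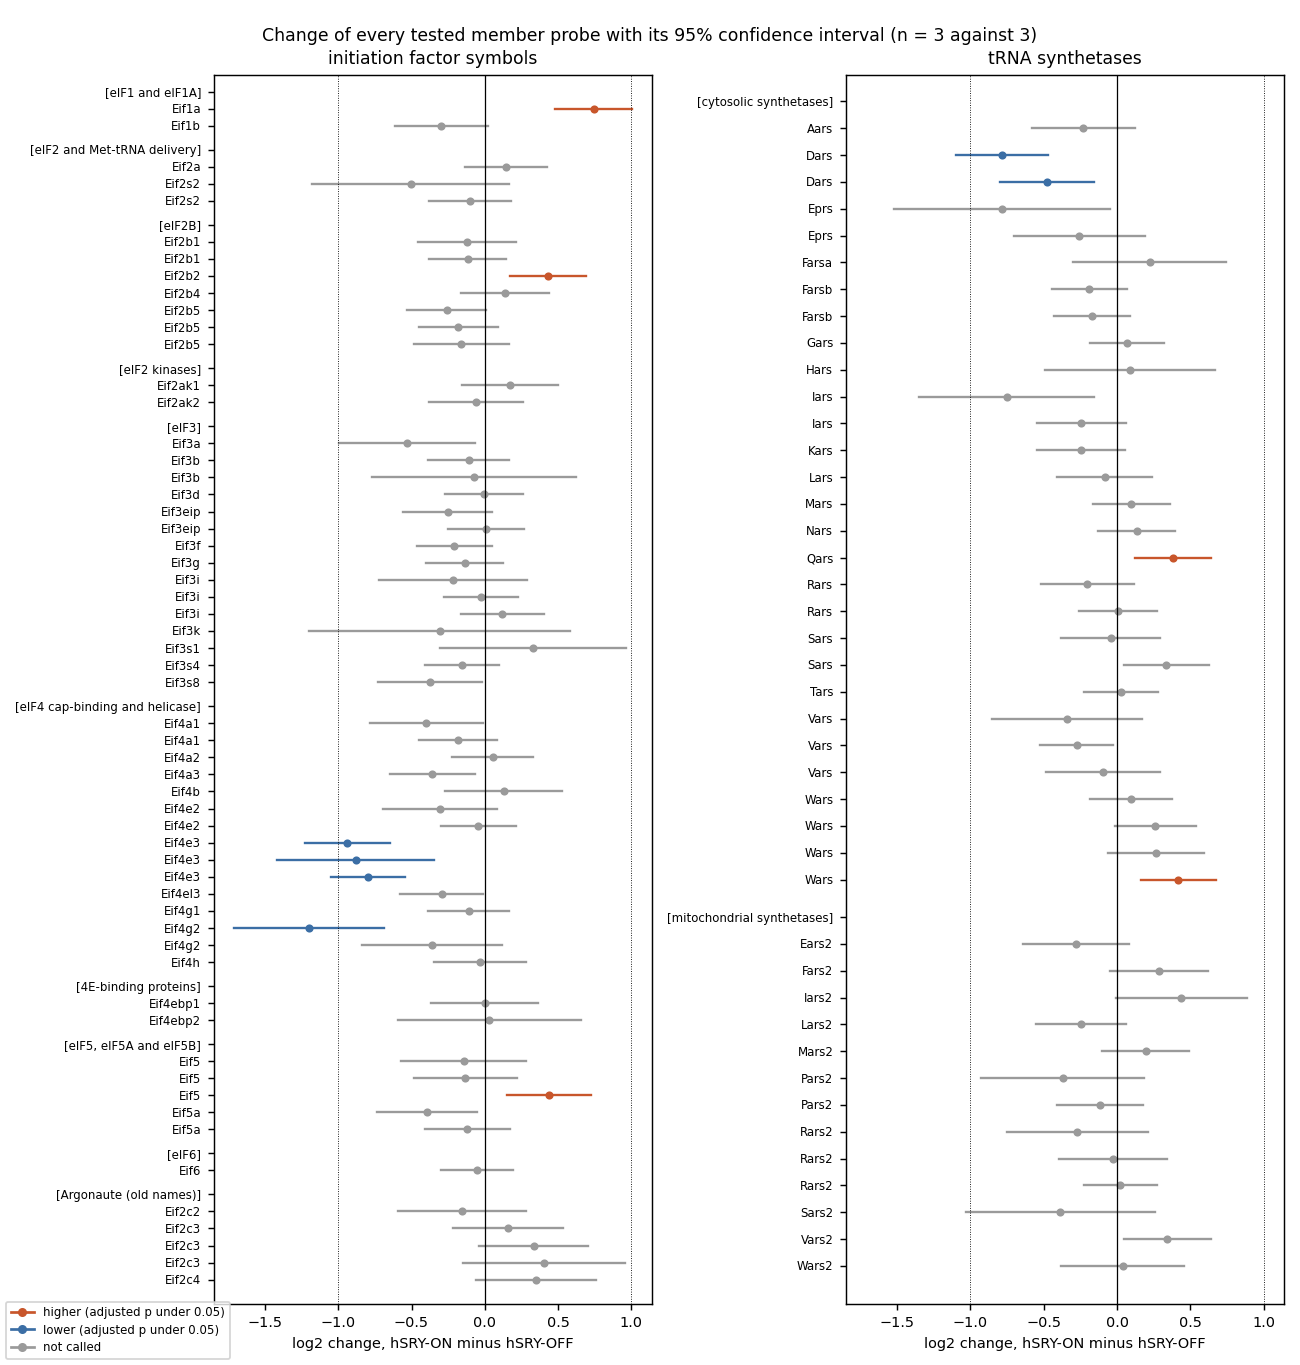
Log2 change of each of the 99 tested member probes (points) with its 95% confidence interval (bars), from 3 hSRY-ON against 3 hSRY-OFF mice, by role. Coloured probes passed an adjusted p of 0.05, and dotted lines mark a 2-fold change. The intervals of the uncalled probes mostly include 0, and the called probes lower in hSRY-ON are those of Eif4e3, Eif4g2 and Dars.

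The cap-binding and helicase group held 4 of the 11 calls, all lower in hSRY-ON. These were 4 of 15 tested probes (26.7%), a share close to the 26.9% of all tested probes. Of the 15 probes, for 10 symbols, 13 had a change below 0. Over all 13841 tested probes, 7359 did. The median of the 15 was -0.31, or -0.18 with median scaling. Some genes have more than 1 of these 15 probes, so the probes are not separate genes. Eif4e3 encodes an atypical cap-binding member of the eIF4E family, and all 3 of its probes fell. Its probe ILMN_1254878 had normalized log2 intensities of 11.07, 10.94 and 10.98 in hSRY-OFF replicates 1 to 3 and 10.20, 10.21 and 10.19 in hSRY-ON replicates 1 to 3. The hSRY-ON mice all lay below the hSRY-OFF mice and close to each other. The log2 change was -0.80 (standard error 0.11, limma adjusted p = 0.0035), or 0.575 times the hSRY-OFF level.

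The second Eif4e3 probe, ILMN_2893605, read 10.37, 10.60 and 10.48 in hSRY-OFF replicates 1 to 3 and 9.48, 9.67 and 9.49 in hSRY-ON replicates 1 to 3, again without overlap. Its change was -0.94 (standard error 0.12, limma adjusted p = 0.0034). The remaining probe, ILMN_2643291, changed by -0.88 (standard error 0.23, limma adjusted p = 0.0294), with hSRY-OFF replicate 3 at 7.32 standing nearest to the hSRY-ON range of 6.86 to 7.05. This last call was lost on leaving out any array other than hSRY-OFF replicate 3, with an adjusted p of 0.053 to 0.104 (limma), while both others held under every alternative tried.

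Eif4g2 encodes DAP5, a relative of the scaffold eIF4G that lacks the eIF4E-binding part and serves cap-independent initiation. Its probe ILMN_1213167 showed the largest change of all members. The intensities were 10.94, 11.06 and 10.58 in hSRY-OFF replicates 1 to 3 and 10.08, 9.38 and 9.52 in hSRY-ON replicates 1 to 3. All hSRY-ON mice were lower, and replicate 1 was the highest of them. The change was -1.20 (standard error 0.22, limma adjusted p = 0.0093), or 0.435 times the hSRY-OFF level. The other Eif4g2 probe, ILMN_2625167, gave -0.36 (95% confidence interval -0.84 to 0.11, limma adjusted p = 0.222), with overlapping groups. That probe was dim, with means of 6.32 in hSRY-OFF and 5.96 in hSRY-ON, where changes are compressed.

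The core of the same complex gave no call. Eif4g1, the main scaffold, changed by -0.11 (95% confidence interval -0.39 to 0.17, limma adjusted p = 0.517). Eif4a2, a helicase, changed by 0.05 (95% confidence interval -0.22 to 0.33, limma adjusted p = 0.758). The other helicase gene Eif4a1 had probes at -0.18 (95% confidence interval -0.45 to 0.09, limma adjusted p = 0.272) and -0.40 (95% confidence interval -0.78 to -0.01, limma adjusted p = 0.111), neither overlapping between the groups. Eif4a3, a helicase of the exon junction complex that was singled out after its values were seen, stood at -0.36 (95% confidence interval -0.64 to -0.07, limma adjusted p = 0.0685). The probe of Eif4e itself was detected on 1 array of each group and was not tested.

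The 4E-binding proteins did not differ detectably. Eif4ebp1 was at 11.30, 11.26 and 11.54 in hSRY-OFF replicates 1 to 3 and 11.57, 11.13 and 11.39 in hSRY-ON replicates 1 to 3, with hSRY-ON replicate 1 the highest and replicate 2 the lowest of all 6 mice. Its change was -0.00 (95% confidence interval -0.37 to 0.37, limma adjusted p = 0.995). Eif4ebp2 varied more between mice and changed by 0.03 (95% confidence interval -0.59 to 0.66, limma adjusted p = 0.940). Eif4ebp3 was not detected on any array.

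Among the early factors, Eif1a rose. It encodes eIF1A, which helps the small subunit to scan for the start codon. The probe ILMN_2698107 read 10.24, 10.32 and 10.44 in hSRY-OFF replicates 1 to 3 and 11.05, 11.09 and 11.08 in hSRY-ON replicates 1 to 3. The 3 hSRY-ON mice lay within 0.04 of each other and above all hSRY-OFF mice. The change was 0.74 (standard error 0.11, limma adjusted p = 0.0051), or 1.67-fold, and the call held under every alternative. Eif1a has close relatives in the genome, and whether its probe also detects them was not tested. Eif1b, a relative of the start-codon factor eIF1, changed by -0.30 (95% confidence interval -0.61 to 0.02, limma adjusted p = 0.145).

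The eIF2 axis changed in 1 place. Eif2b2 encodes the beta subunit of eIF2B, the factor that recharges eIF2 with GTP. Its probe read 10.28, 10.24 and 10.18 in hSRY-OFF replicates 1 to 3 and 10.60, 10.64 and 10.76 in hSRY-ON replicates 1 to 3, without overlap, and rose by 0.43 (standard error 0.11, limma adjusted p = 0.0294). This call was lost whenever an array was left out, apart from hSRY-ON replicate 1, with an adjusted p of 0.0544 to 0.1 (limma). The other 6 eIF2B probes, of Eif2b1, Eif2b4 and Eif2b5, lay between -0.26 and 0.14 and did not pass. Eif2s2, the beta subunit of eIF2 itself, had probes at -0.10 (95% confidence interval -0.38 to 0.18, limma adjusted p = 0.545) and -0.51 (95% confidence interval -1.18 to 0.17, limma adjusted p = 0.225). The second of these probes split the hSRY-ON mice, with 7.66 in replicate 1 against 6.53 and 6.68 in replicates 2 and 3. The probe of Eif2s1, the subunit that stress kinases phosphorylate, was not detected on any array.

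Of those kinases, Eif2ak1, activated by lack of haem, changed by 0.17 (95% confidence interval -0.16 to 0.50, limma adjusted p = 0.396). Eif2ak2, the double-stranded RNA sensor PKR, changed by -0.06 (95% confidence interval -0.38 to 0.26, limma adjusted p = 0.773). Eif2ak4, the amino acid sensor GCN2, was not detected on any array, and Eif2ak3 was not analysed here.

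Eif5 gave mixed readings from its probes. It encodes the factor that makes eIF2 hydrolyse GTP at the start codon. Probe ILMN_3151345 was at 12.45, 12.47 and 12.57 in hSRY-OFF replicates 1 to 3 and 12.84, 13.10 and 12.86 in hSRY-ON replicates 1 to 3 and rose by 0.44 (standard error 0.12, limma adjusted p = 0.0381). The other probes, ILMN_1240466 and ILMN_3072536, changed by -0.13 and -0.14, with overlapping groups and adjusted p of 0.539 and 0.584 (limma). The rise therefore stands on 1 of 3 probes, and leaving out an hSRY-OFF array, or replicate 2 of hSRY-ON, ended the call at an adjusted p of 0.0831 to 0.127 (limma). Eif5a, an elongation factor despite its name, had probes at -0.39 (95% confidence interval -0.74 to -0.05, limma adjusted p = 0.0845) and -0.12 (95% confidence interval -0.41 to 0.17, limma adjusted p = 0.508). Eif6, which keeps the ribosomal subunits apart, varied little and changed by -0.05 (95% confidence interval -0.30 to 0.19, limma adjusted p = 0.734).

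The eIF3 complex, the large scaffold on the small ribosomal subunit, had 15 tested probes for 11 symbols. None was called (limma, adjusted p under 0.05), against 26.9% of all tested probes. An unadjusted p under 0.05 (limma) was found for 2 of the 15, against 40.9% of all tested probes. The changes ran from -0.53 for Eif3a to 0.33 for Eif3s1, an older name of Eif3j1. In 12 of the 15 probes the change was below 0, against 7359 of all 13841 tested probes. The median of the 15 was -0.14, but it was 0.09 with median scaling. Group values did not overlap in 3 of the 15 probes, all lower in hSRY-ON, those of Eif3f, Eif3s4 (an older name of Eif3g) and Eif3s8 (Eif3c). Of all tested probes, 24.1% were lower without overlap. Without hSRY-ON replicate 1, 4 eIF3 probes passed, all lower, in a fit that called 32.3% of all tested probes. The 5 tested Argonaute probes changed by -0.16 to 0.41 and gave no call, 0 of them at an unadjusted p under 0.05 (limma). They were dim, with hSRY-OFF means of 5.31 to 6.54, where changes are compressed.

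**Figure D3:**
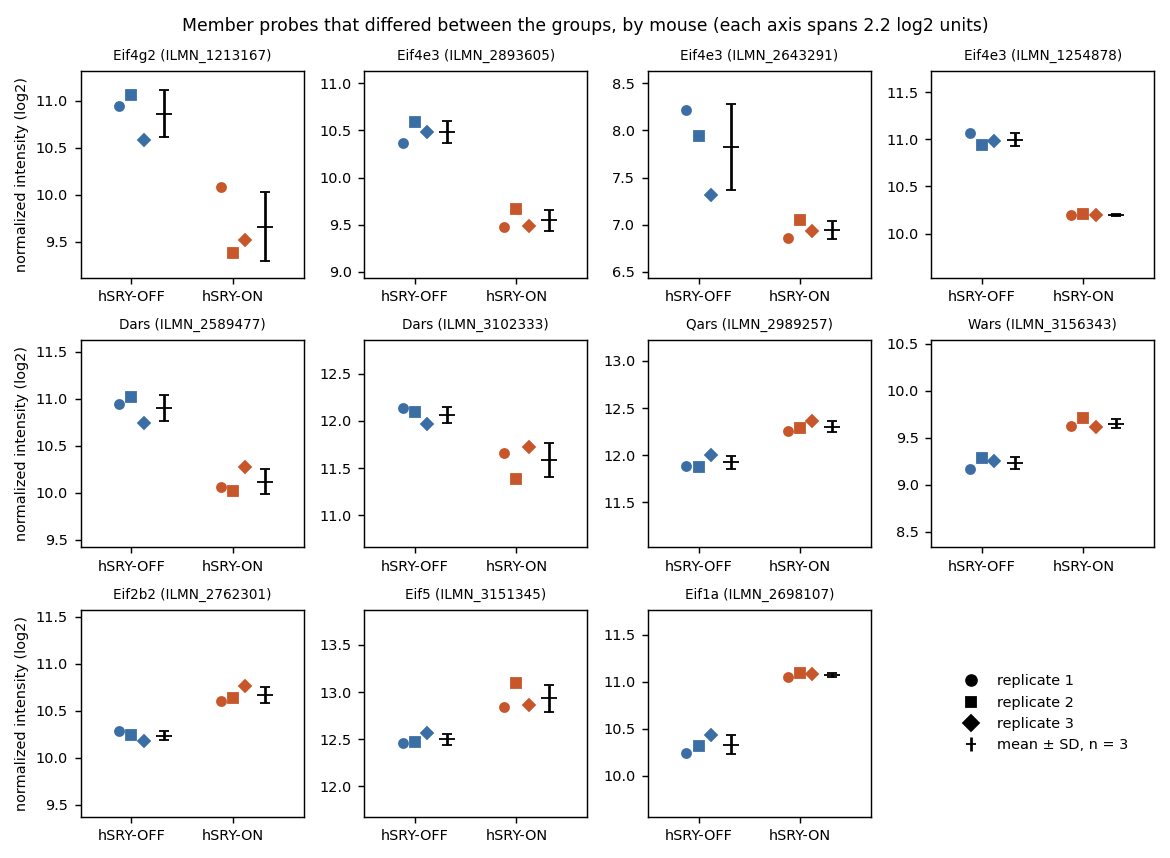
Normalized log2 intensity (vertical axes, each spanning 2.2 units) of the 11 member probes that differed, for each of the 3 hSRY-OFF and 3 hSRY-ON mice, with mean ± SD (n = 3) beside them. The groups do not overlap in any panel, and the widest gap between the group means is that of Eif4g2.

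The synthetases gave 4 calls among 42 tested probes (9.52%, against 26.9% of all tested probes), all in cytosolic enzymes. Dars, the aspartyl-tRNA synthetase, fell on both tested probes. ILMN_2589477 read 10.94, 11.02 and 10.75 in hSRY-OFF replicates 1 to 3 and 10.06, 10.02 and 10.27 in hSRY-ON replicates 1 to 3. The groups were separate, with hSRY-ON replicate 3 nearest to hSRY-OFF. The change was -0.78 (standard error 0.13, limma adjusted p = 0.0077), 0.581 times the hSRY-OFF level, and it held under every alternative. ILMN_3102333 was at 12.14, 12.09 and 11.97 in hSRY-OFF replicates 1 to 3 and 11.66, 11.38 and 11.73 in hSRY-ON replicates 1 to 3 and changed by -0.48 (standard error 0.14, limma adjusted p = 0.0394), a call lost with median scaling (change -0.29, adjusted p = 0.193). It was also lost without any hSRY-OFF array or without hSRY-ON replicate 2, at an adjusted p of 0.0773 to 0.137 (limma).

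The rises were smaller. Qars, the glutaminyl-tRNA synthetase, was at 11.89, 11.88 and 12.005 in hSRY-OFF replicates 1 to 3 and 12.26, 12.29 and 12.36 in hSRY-ON replicates 1 to 3. Every hSRY-ON mouse was above every hSRY-OFF mouse, and the change was 0.38 (standard error 0.11, limma adjusted p = 0.0417). Wars, the tryptophanyl-tRNA synthetase, which is also known to be induced by interferon, was measured by 4 probes, all with a change above 0. ILMN_3156343 was at 9.17, 9.29 and 9.25 in hSRY-OFF replicates 1 to 3 and 9.63, 9.71 and 9.62 in hSRY-ON replicates 1 to 3 and rose by 0.42 (standard error 0.11, limma adjusted p = 0.0300). The other 3 Wars probes changed by 0.09 to 0.27 and did not pass. The Qars call held without hSRY-ON replicate 1 only, and the Wars call without hSRY-ON replicate 1 or 3. Without each of the other arrays their adjusted p (limma) lay between 0.0694 and 0.147.

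Dars and Qars belong with Eprs, Iars, Kars, Lars, Mars and Rars to the multisynthetase complex, a grouping looked at after the values were seen. Its 8 synthetase genes had 12 tested probes, 1 called higher and 2 lower, or 25% against 26.9% of all tested probes. Eprs, the joint glutamyl and prolyl enzyme, had probes at -0.78 (95% confidence interval -1.52 to -0.05, limma adjusted p = 0.103) and -0.26 (95% confidence interval -0.70 to 0.19, limma adjusted p = 0.345). Its lowest reading was 5.72, in hSRY-ON replicate 1, while replicate 3 of that group at 6.82 was above the lowest hSRY-OFF mouse. Iars, the isoleucyl enzyme, had 1 probe at -0.75 (95% confidence interval -1.35 to -0.16, limma adjusted p = 0.0654), while its other tested probe changed by -0.24. Of the scaffold proteins that hold this complex together, Aimp2 fell by 0.49 (limma, adjusted p = 0.0310), whereas Aimp1 stood at -0.03 (limma, adjusted p = 0.878) and Eef1e1 at -0.89 (limma, adjusted p = 0.0874). The Aimp2 call was lost with median scaling and on leaving out any array other than hSRY-ON replicates 1 and 3.

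The 3 genes with the amino acid response element core in their promoter windows gave no call. Gars was at 13.20, 13.12 and 13.18 in hSRY-OFF replicates 1 to 3 and 13.17, 13.30 and 13.24 in hSRY-ON replicates 1 to 3, a change of 0.07 (95% confidence interval -0.19 to 0.32, limma adjusted p = 0.672). Aars changed by -0.23 (95% confidence interval -0.58 to 0.12, limma adjusted p = 0.286), with hSRY-ON replicates 1 to 3 at 10.85, 11.01 and 11.30. Tars changed by 0.03 (95% confidence interval -0.22 to 0.28, limma adjusted p = 0.859). Its tested probe was dim, at 5.55 to 5.68 over the 6 arrays, where changes are compressed, and its other probe was not tested. The narrow interval is therefore weak evidence for an unchanged level.

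Mitochondrial synthetases, which charge tRNAs inside the organelle, had 13 tested probes for 10 symbols. None was called (limma, adjusted p under 0.05), against 26.9% of all tested probes. An unadjusted p under 0.05 (limma) was found for 1 of the 13, against 40.9% of all tested probes. Their changes ran from -0.39 for Sars2 to 0.44 for Iars2. Group values did not overlap in the probes of Mars2 and Vars2, both higher in hSRY-ON, with Vars2 at 0.34 (95% confidence interval 0.04 to 0.64, limma adjusted p = 0.0858). Of all tested probes, 22.4% were higher without overlap. The probes of Aars2, Hars2 and Yars2 were not detected on any array, and that of Nars2 on 1 array of each group.

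Genes around these pathways were read from lists, with the brightest tested probe of each gene. Of 52 tested cytosolic ribosomal protein genes, 1 was called higher and 1 lower (3.85%), against 26.9% of all tested probes. The list of elongation and termination factors had 15.4% called and that of regulators 13.3%. Rpl28 changed by -0.38 (limma, adjusted p = 0.0417) and Rpl3l, a muscle form, by 1.06 (limma, adjusted p = 0.0332). The list's median was -0.08, or 0.20 with median scaling. Of 13 tested elongation and termination factors, Pelo, a ribosome rescue factor, fell by 0.63 (limma, adjusted p = 0.0107) and Gspt2, a termination factor, rose by 1.11 (limma, adjusted p = 0.0110). Of 15 tested mTORC1 and cap-binding regulators, Mlst8, an mTOR partner named Gbl on the array, fell by 0.49 (limma, adjusted p = 0.0259) and the mTORC1 inhibitor Sesn1 rose by 1.03 (limma, adjusted p = 0.0270). With median scaling the calls of Pelo, Mlst8 and Rpl28 were lost. Without hSRY-ON replicate 1 the calls of these lists numbered 8, 4 and 4, in a fit that called 32.3% of all tested probes. When any other array was left out no ribosomal protein gene passed, and when an hSRY-OFF array was left out no regulator did.

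Targets of ATF4 moved in both directions, with 4 called higher and 2 lower of 17 tested (35.3%) and a median of 0.35. Over all tested probes 26.9% were called, 13.6% higher and 13.3% lower. The cystine transporter gene Slc7a11 was not detected in any hSRY-OFF mouse and was detected in all hSRY-ON mice at 7.58, 7.08 and 7.86, at least 4.65-fold higher (2.22 on the log2 scale) against the lowest signal detected on each hSRY-OFF array. The probe passed the detection filter through the hSRY-ON arrays alone, and the adjusted p of 0.000691 (limma) belongs to the fitted change of 2.70, not to this bound. Nupr1, a stress-induced regulator, rose by 1.54 (limma, adjusted p = 0.00379). The serine synthesis gene Phgdh was lower, at -0.74 (limma, adjusted p = 0.00905). Atf4 itself changed by -0.30 (limma, adjusted p = 0.408) and Asns, the asparagine synthetase gene, by -0.23 (limma, adjusted p = 0.546). Without hSRY-ON replicate 2 the calls of this list numbered 4, and without hSRY-ON replicate 3 they numbered 9.

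**Figure D4:**
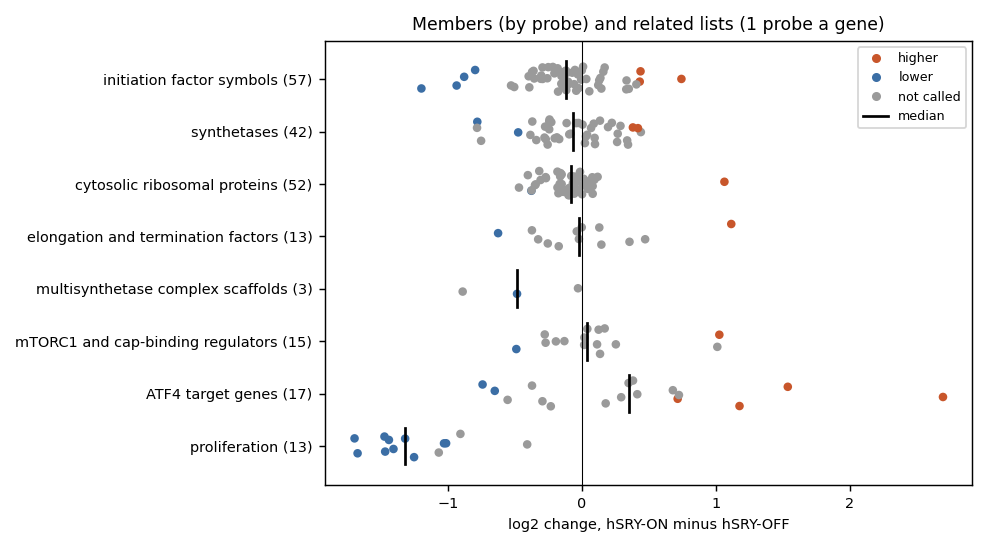
Log2 change between hSRY-ON and hSRY-OFF for the tested member probes (first 2 rows) and for related lists with 1 probe a gene (number tested in parentheses). Vertical bars are medians and colours mark probes past an adjusted p of 0.05. The members and the ribosomal protein genes gather near 0, and the proliferation genes lie below it. The fitted 2.70 of Slc7a11 is drawn, for which only the bound of 2.22 is supported.

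Other features of the tissue differed between the same arrays. All 9 lung markers were detected on every array, and 2 were called higher and 2 lower in hSRY-ON (44.4%). The share called over all tested probes was 26.9%. Foxj1, of ciliated cells, changed by 1.15 (limma, adjusted p = 0.00646) and Sftpb, a surfactant protein gene, by 0.67 (limma, adjusted p = 0.00798). Cdh5, of endothelial cells, changed by -0.48 (limma, adjusted p = 0.0294) and Col1a1, of fibroblasts, by -0.60 (limma, adjusted p = 0.0493), but no lung marker was called lower with median scaling. The list had a summed normalized signal of 16.60 to 16.70 in hSRY-OFF and 16.59 to 16.66 in hSRY-ON on the log2 scale. Of 13 tested proliferation genes, 10 were lower, and their summed signal was 13.94 to 14.28 in hSRY-OFF against 12.47, 12.64 and 13.43 in hSRY-ON replicates 1 to 3. Mcm3 changed by -1.70 (limma, adjusted p = 0.00397) and Mcm6 by -1.44 (limma, adjusted p = 0.00618). Of 4 macrophage markers 2 were higher, with a summed signal of at most 10.06 in hSRY-OFF and at least 11.01 in hSRY-ON. Marco changed by 2.55 (limma, adjusted p = 0.00639) and Cd68 by 1.33 (limma, adjusted p = 0.0135). Of 3 tested genes listed as thymocyte markers 2 were lower, with Cd8a and Rag1 not tested. The summed signal of the 3 was 9.23 to 9.43 against 7.71 to 8.76. Cd3e changed by -1.74 (limma, adjusted p = 0.0112) and Lck by -1.25 (limma, adjusted p = 0.0334). Ptcra changed by -0.26 (limma, adjusted p = 0.451), with overlapping groups. Whether these signals came from thymocytes was not tested. Of 4 tested cardiac markers 1 was called, Nppa, which was higher at 5.55 (limma, adjusted p = 0.00608), with 12.32, 12.39 and 9.30 in hSRY-ON replicates 1 to 3. The summed cardiac signals, which include Nppa, were 10.34 to 10.90 against 12.77, 12.65 and 10.59. In hSRY-ON replicates 1 and 2 Nppa alone made up most of this sum. The other cardiac markers tested did not pass, with Myl7 at -0.99 (limma, adjusted p = 0.0718) and no overlap, Myh6 at 0.08 (limma, adjusted p = 0.873) and Actc1 at 0.30 (limma, adjusted p = 0.681). None of 5 erythroid or 2 tested skeletal muscle markers passed (limma), with 1 of each at an unadjusted p under 0.05. Such an unadjusted p was found for 40.9% of all tested probes. The summed erythroid signals were 15.83 to 16.02 against 15.84 to 16.01. Those of skeletal muscle were 7.13 to 7.57 against 6.56 to 7.07. The part of these differences in the changes of the initiation factors and synthetases was not tested.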

How the data were processed

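The authors deposited, for each probe and array, an intensity (mean bead signal on a linear scale, neither background-corrected nor normalized) and a detection p-value. The deposited detection p-value is the share of negative controls brighter than the probe. The summarising software is not given in the sources used here. Array medians ranged from 177.1 to 204.0 and 13191 to 14134 probes were detected per array, and the number of arrays limits the precision. The study's methods name the package TCC, made for counts, so these intensities were analysed with limma 3.58.1 in R 4.3.3. They were background-corrected from the detection p-values (neqc, offset 16), quantile-normalized and put on the log2 scale, which compresses dim probes. Probes detected (p under 0.05) on at least 3 of 6 arrays were kept, 13841 in all. Groups came from the sample labels. The model (lmFit, eBayes) held the group alone, and Benjamini-Hochberg adjustment covered every kept probe. An exact permutation of 3 against 3 arrays cannot give a p below 0.1. Replicates are separate mice per the study's methods. No chip is named in the table, so no chip effect could be fitted. Correlations between arrays over kept probes were 0.991 to 0.993 within hSRY-OFF, 0.972 to 0.980 within hSRY-ON and 0.935 to 0.959 between groups. The pipeline was tested on simulated data.

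The members, lists and tests were chosen with earlier results of these data known. Named genes were, in each role, the 3 largest rises and 3 largest falls among called probes without overlap between groups, a fixed set (Eif2s1, Eif2s2, Eif2ak1 to Eif2ak4, Eif4a1, Eif4a2, Eif4e, Eif4g1, Eif4ebp1 to Eif4ebp3, Eif5a, Eif6 and Eprs) and, per related list, the 2 called genes of smallest p. Others were named after their values were seen. Of the members, 12 symbols were updated and promoter sequences taken through RefSeq tables (GRCm38.p6). The alternatives were other background corrections, scalings, detection filters, variance models, array weights, a replicate block, a stricter threshold, 1 probe a gene and each array left out.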

Additional observations from a re-analysis of the deposited data

How the results depend on the processing

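The members gave 11 calls (4 synthetase and 7 initiation factor probes), and these counts stayed within 1.5 times under every other scaling, background correction and detection filter and with array weights. A variance trend with robust estimation gave 11 initiation factor calls. An adjusted p under 0.01 left 5, 1 and 4 calls, and 1 probe a gene gave 7, 2 and 5, both fewer by construction. Leaving out 1 array gave 5 to 21 member calls, 1 to 7 of synthetases and 4 to 14 of initiation factors. The counts were highest without hSRY-ON replicate 1 (21, 7 and 14) and the cause was not tested. They were 5, 1 and 4 without hSRY-OFF replicate 1, hSRY-OFF replicate 2 or hSRY-ON replicate 2, then 6, 1 and 5 without hSRY-OFF replicate 3, and 10, 4 and 6 without hSRY-ON replicate 3. Over all tested probes between 11.2% and 32.3% were called in these fits. Of the 11 calls 5 held under all 17 alternatives tried for single probes (Eif1a, Eif4g2, a Dars probe and 2 Eif4e3 probes), 6 were lost under at least 1, and none turned its sign. Of the 88 uncalled probes, 18 passed under at least 1. With the replicate number as a block, 7 member, 2 synthetase and 5 initiation factor probes were called. Deviations of same-numbered arrays correlated at -0.107, 0.0958 and -0.0927, and those of differently numbered arrays of the 2 groups at -0.0885 to 0.162. With 3 mice a group this cannot show whether the numbers pair the mice, and the labels state no pairing. Dim signal limits probes such as those of Eif2s1, Eif4e and Eif2ak4, whose levels cannot be compared here. The planned chip block was not run.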
